A study of Mus musculus with 8 samples.

Results

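The comparison concerns epididymal white adipose tissue (eWAT), the abdominal fat depot attached to the epididymis of male mice, and asks which transcripts differed between Crtc1 knockout and wild-type animals. It comprised 4 of the 8 libraries of the series, chosen by their labels. Of these, 2 were labelled Crtc1-/- and 2 Crtc1+/+, and 4 liver libraries of the same genotypes served as a reference profile. All mice were males aged 12 weeks that had been fasted for 16 h. The Crtc1-/- line was made with CRISPR/Cas9 and a pair of guides in exons 2 and 4 of Crtc1, bred as a whole-body deletion, and compared with wild-type littermates. A piece of each fat pad was used, so the libraries hold RNA of every cell in that piece, and the labels do not say how it was freed of neighbouring tissue. In such bulk samples, fewer cells of a type and less RNA per cell cannot be told apart.

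CRTC1 is a coactivator that moves to the nucleus when salt-inducible kinases (SIK) no longer phosphorylate it, and there joins CREB, the factor that binds the cAMP response element (CRE) in promoters. White adipocytes store triglyceride under the control of PPARγ and C/EBPα, release fatty acids through the lipases encoded by Pnpla2, Lipe and Mgll, and secrete adipokines such as leptin and adiponectin. The epididymis is a ductal organ whose epithelium secretes lipocalins, beta-defensins, protease inhibitors and the peroxidase GPX5 onto maturing sperm. It makes no fat, and adipose tissue is not known for the epididymal members of these families.

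The 2 groups differed most in secretory genes of the epididymis, which were abundant only in the libraries labelled Crtc1+/+. Genes of adipocytes and endothelium were higher in both libraries labelled Crtc1-/-. Hepatocyte markers had a larger median log2 fold change than these, at 4.13, but as a list were high only in the second library labelled Crtc1-/-. Each library held 17616671 to 18504861 counts, and levels are given as CPM, the counts of a gene relative to the library's total after TMM scaling, which corrects each total for its composition. Of 15391 genes tested in edgeR's quasi-likelihood test, 1023 were higher in the libraries labelled Crtc1-/- at an adjusted p under 0.05, which is 6.65% of the genes tested, and 852 were lower, which is 5.54%. "Rose" and "fell" are used below for these calls, and counts of list members are to be read beside these shares of 6.65% and 5.54%. Over all genes tested, the log2 fold change had a median of -0.05. Both libraries labelled Crtc1-/- lay above both labelled Crtc1+/+ in 4813 genes and below both in 5444. Groups without overlap were therefore common, and lack of overlap is given below as a description only. Without the first library labelled Crtc1+/+ 0 genes passed in edgeR and 3452 had an unadjusted p under 0.05, and without the second 0 passed and 2614 had one. Each call below therefore needs both libraries labelled Crtc1+/+. For some lists the sizes moved less than the calls. Without the first and without the second of these libraries, adipocyte markers had a median log2 fold change of 3.47 and 4.18 (3.69 with both). In the same order endothelial markers had 3.45 and 3.33 (3.35), and epididymal lipocalins -12.96 in either case (-13.01). The medians of hepatocyte and erythroid markers moved further than these. That of lymphocyte markers changed sign without the first of these libraries. Any refit without 1 library compares a lone library with a pair and takes the spread from that pair alone, so its calls do not include the spread between libraries of the reduced group. The split also follows the scaling. Upper-quartile scaling gave 744 higher and 996 lower genes, library-size scaling 587 and 1075, and a scaling that set the adipocyte markers equal in every library 22 and 13475, with a shift of all genes by -0.21, -0.30 and -3.52 on the log2 scale. Directions below are those of TMM scaling. Under the adipocyte-marker scaling the adipocyte markers had a median of 0.13 and the endothelial markers -0.24, with 0 of either called higher, whereas the epididymal lipocalins stayed lower, all 6 called and with a median of -16.32.

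The targeted gene did not separate the labels. Crtc1 (NCBI Gene 382056, GRCm38.p6 chr8:70382352-70439702) stood at 58.5 and 33.6 CPM where the label was Crtc1-/- and at 32.6 and 33.7 where it was Crtc1+/+. The groups overlapped, with a log2 fold change of 0.48 ± 0.37 (SE, n = 2 per group, adjusted p = 0.396 in edgeR). The counts are summed over the whole gene and include exons outside the targeted part, so this level checks little of the deletion, and the genotypes are given below as labelled.

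Where members of the CREB pathway carry the CRE in their promoter, the sequence shows what a CREB and CRTC complex could read. RefSeq promoter windows of GRCm38.p6 (250 bases before to 50 after each start) were searched for TGACGTCA, which reads the same on both strands and is in capitals below. The motif stood in 588 of 32851 windows (1.79%). Among the listed genes of the CRTC, CREB and SIK machinery, 0 of the 10 with a window held the motif. Among the CREB targets listed, 1 of the 15 with a window held it, and among the clock genes 1 of 16. Shown are these 2, with 4 further genes that rose and the 5 that fell with the motif before their start. The latter 9 were chosen after their values were seen.
Dusp1 (chr17:26508582-26508641, minus strand): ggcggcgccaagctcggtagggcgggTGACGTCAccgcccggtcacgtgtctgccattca
Hlf (chr11:90390918-90390952, minus strand): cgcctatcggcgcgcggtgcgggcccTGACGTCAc
Epha2 (chr4:141301162-141301220, plus strand): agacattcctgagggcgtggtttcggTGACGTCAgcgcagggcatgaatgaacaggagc
Trp53inp2 (chr2:155381789-155381848, plus strand): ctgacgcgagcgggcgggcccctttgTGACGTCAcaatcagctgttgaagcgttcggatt
Olfm2 (chr9:20727034-20727093, minus strand): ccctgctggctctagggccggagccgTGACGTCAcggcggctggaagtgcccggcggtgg
Lrrc8a (chr2:30237635-30237694, plus strand): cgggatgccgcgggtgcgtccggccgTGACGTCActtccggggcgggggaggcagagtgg
Hs3st3a1 (chr11:64435223-64435282, plus strand): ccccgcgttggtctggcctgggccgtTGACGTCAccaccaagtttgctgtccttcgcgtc
Iqcf3 (chr9:106561644-106561703, minus strand): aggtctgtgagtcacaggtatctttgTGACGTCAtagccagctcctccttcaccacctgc
Cds1 (chr5:101764992-101765051, plus strand): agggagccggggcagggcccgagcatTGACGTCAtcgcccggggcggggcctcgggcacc
Galnt11 (chr5:25222817-25222871, plus strand): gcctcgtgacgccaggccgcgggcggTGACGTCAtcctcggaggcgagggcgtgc
Pgap2 (chr7:102210407-102210466, plus strand): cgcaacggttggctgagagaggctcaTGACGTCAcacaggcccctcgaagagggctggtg

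Genes with the motif were called no more often than others. Of 385 tested genes whose promoter window held TGACGTCA, 19 (4.94%) rose and 5 (1.30%) fell. Among all 12202 tested genes with a window the shares were 6.29% and 5.24%. The median log2 fold change was -0.02 with the motif and -0.06 over all genes with a window. Hlf, a clock output factor, was at 4.89 and 19.0 CPM against 22.4 and 33.9 and did not pass (adjusted p = 0.270 in edgeR). Trp53inp2, an autophagy factor, was at 753 and 634 against 78.6 and 98.4 (2.97 ± 0.36, adjusted p = 0.0193), and Pgap2, of GPI anchor maturation, at 61.1 and 49.3 against 473 and 528 (adjusted p = 0.0170). A match is a description of the letters and was not tested against the calls.

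Dusp1, a phosphatase that CREB induces, had the highest log2 fold change among the CREB targets that rose. In the libraries labelled Crtc1-/- it stood at 168 and 205 CPM against 14.4 and 7.57, with no overlap between the groups (4.09 ± 0.44 on the log2 scale, adjusted p = 0.0172 in edgeR). Per1, a clock gene that CREB also induces, was at 176 and 118 CPM against 50.9 and 48.9 (1.56 ± 0.32, adjusted p = 0.0434). These were the 2 of 17 tested CREB targets that rose, beside the 6.65% of all genes, and the list had a median of 0.75. Junb and Egr1, the other abundant immediate early genes of the list, did not separate, with Egr1 at 74.5 and 90.7 CPM against 27.3 and 122. Fosb, chosen after its values were seen, was at 99.7 CPM in the first library labelled Crtc1-/- and at 2.22 or less in the other 3, so its level rested on 1 library.

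Among the 14 genes of the CRTC, CREB and SIK machinery 1 rose, a share near the 6.65% of all genes. Sik2, the adipose member of the kinases that hold CRTC proteins in the cytoplasm, was at 199 and 249 CPM against 24.7 and 56.2 (2.47 ± 0.49, adjusted p = 0.0411). Its relative Sik3 was at 76.1 and 77.3 against 29.7 and 35.6 and the coactivator Crtc2 at 81.6 and 75.5 against 38.2 and 36.7. Neither group pair overlapped, and neither gene passed (adjusted p = 0.0506 and 0.0605 in edgeR).

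Epididymal secretory genes were the class that fell furthest. All 6 lipocalins of the list fell, as did 26 of 35 tested beta-defensins, 7 of 8 cystatins and RNases, 14 of 19 protease inhibitors and 11 of 11 sperm-maturation proteins, beside 5.54% of all genes. The median log2 fold change was -13.01 for the lipocalins and -9.40 for the beta-defensins, and -12.56 and -8.10 with genes at 0 counts set to their floor of 3 counts per library. Together with epithelial and clear cell genes, 107 epididymal genes held 12.4% and 13.8% of the counts in the libraries labelled Crtc1+/+ and 0.115% and 0.0946% in those labelled Crtc1-/-. In liver they held 0.0913% to 0.115%. The 84 secretory genes among them held 12.0% and 13.4% in the libraries labelled Crtc1+/+, 0.0157% and 0.00322% in those labelled Crtc1-/-, and 0.00140% to 0.0143% in liver. The rest in liver was mainly epithelial genes, at 0.0898% to 0.101%, and in the first library labelled Crtc1-/- it was clear cell genes at 0.0653%, a list in which Car4 rose, and epithelial genes at 0.0343%.

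The most abundant of them showed the size of the gap. Gpx5 (chr13:21286429-21292727) stood at 1.81 and 7.01 CPM under the label Crtc1-/- against 40801 and 50642, and was the most abundant gene of both libraries labelled Crtc1+/+. Spag11b, a defensin-like sperm-binding protein, was at 0.440 and 1.11 CPM against 10571 and 11681 (-13.81 ± 1.09 on the log2 scale, adjusted p = 0.0155 in edgeR). Lcn8, a lipocalin of the initial part of the duct, was at 0.275 and 1.32 against 7298 and 6281. Between genes and per transcript length, Gpx5 and Spag11b were at 31621 and 24142 FPKM in the first library labelled Crtc1+/+, where Adipoq was at 129. The epididymal levels were thus far above that of adiponectin in a library labelled as fat.

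Within the epididymal genes, the 2 libraries labelled Crtc1-/- did not hold the same remnant. Over 54 secretory genes with at least 100 CPM (by library total) in the libraries labelled Crtc1+/+, the median level was 0.0330% of that mean in the first library labelled Crtc1-/- and 0.0235% in the second. In the second no gene exceeded 0.147%, and the liver libraries reached 0.227%. In the first, 35 genes were under 0.1% whereas 11 were over 1%, led by Wfdc15b at 4.11% (named after its values were seen). Crisp1, a sperm-coating protein, was at 19.1 and 1.53 CPM against 955 and 1638, and Serpina1f at 16.3 and 0.903 against 1250 and 1254. By library total, without TMM scaling, the first library kept 1.31% and 1.15% of the Crtc1+/+ level. Gpx5 and Lcn8 kept 0.00351% and 0.00357% there. In liver Crisp1 reached 0.367 CPM and Serpina1f 1.15, below the first library labelled Crtc1-/-, whereas Gpx5 was at 1.05 to 51.2 and Lcn8 at 0.205 to 8.86, a range that held both libraries labelled Crtc1-/-.

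**Figure D1:**
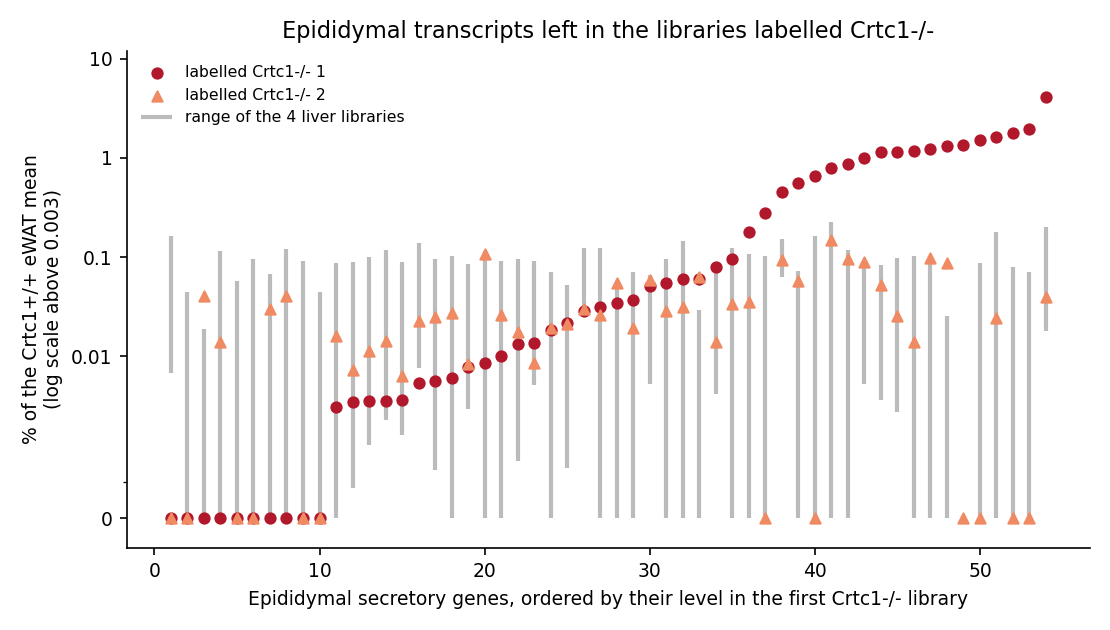
Each of 54 epididymal secretory genes is plotted by rank against its level as a percent of the mean of the libraries labelled Crtc1+/+ (log scale above 0.003%), as a circle for the first and a triangle for the second library labelled Crtc1-/-, with grey bars for the range of the 4 liver libraries. The triangles stay at or under 0.147%, inside or near the liver range, whereas 11 circles lie above 1%.

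Other genes of the male tract behaved alike in part. Foxi1, a regulator of clear cells, was at 0.110 and 0 CPM against 70.0 and 79.1. Car4, a carbonic anhydrase of the same list that capillaries also carry, went the other way, at 651 and 501 CPM against 140 and 150 (1.99 ± 0.34, adjusted p = 0.0311 in edgeR). Of 14 sperm and testis genes 2 fell, and the list's median was -3.03, with Prm1, a protamine of sperm chromatin, at 28.4 and 4.44 against 192 and 67.2. Foxj1, the regulator of motile cilia, was at 77.0 CPM in the first library labelled Crtc1-/-, 0.417 in the second, and 39.7 and 22.6 in the libraries labelled Crtc1+/+. Without the first library Foxj1 had a log2 fold change of -6.20, and with both it had 0.31 ± 1.77. All 10 motile cilia genes were below both libraries labelled Crtc1+/+ in the second library labelled Crtc1-/-, and 2 were in the first. With both libraries 0 passed in edgeR, 1 had an unadjusted p under 0.05, and DESeq2 called 1 lower.

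Of 11 smooth muscle markers 3 fell, with a median of -1.24, and of 14 epithelial genes 3 fell, with a median of -4.20. Of the epithelial genes 12 had an unadjusted p under 0.05 in edgeR, and DESeq2 called 11 lower. Their median was -8.02 without the first library labelled Crtc1-/- and -4.16 without the second. All 14 epithelial genes, and 6 and 8 of the smooth muscle markers, were below both libraries labelled Crtc1+/+ in the first and second library labelled Crtc1-/-, beside 42.8% and 46.6% of all genes. Epcam, an adhesion protein of epithelia, was at 20.6 and 0.417 CPM against 300 and 393 and did not pass (adjusted p = 0.113 in edgeR). Actg2, the actin of visceral smooth muscle, was at 28.5 and 2.22 CPM against 1709 and 1667 (-6.78 ± 1.41, adjusted p = 0.0451), and Myh11, smooth muscle myosin, at 101 and 59.6 against 837 and 342 (-2.88 ± 0.60, adjusted p = 0.0452). Acta2, which vessels express too, was at 769 and 628 against 1318 and 595, so its groups overlapped. Lcn2, a lipocalin counted among the inflammatory genes, was at 237 and 42.1 CPM against 5885 and 5251 (-5.32 ± 1.06, adjusted p = 0.0411). It fell while Nos2 of the same list rose, from 1.204 and 1.09 to 26.8 and 12.3 CPM (4.08 ± 0.59, adjusted p = 0.0243).

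Most genes of the secretory pathway were lower without passing the test. Of 15 endoplasmic reticulum chaperones and secretion factors, 14 were below both libraries labelled Crtc1+/+ in each library labelled Crtc1-/- (beside 42.8% and 46.6% of all genes), and the list's median was -1.74. Calr, a calcium-binding chaperone, was at 691 and 1190 CPM against 2976 and 3742 (-1.84 ± 0.52, adjusted p = 0.0833). Of the list, 1 gene passed, Pdia6, a disulfide isomerase named after its values were seen (-2.09 ± 0.39, adjusted p = 0.0358), and without the second library labelled Crtc1-/- 11 passed, where 8.28% of all genes were lower. By unadjusted p 12 were under 0.05, and DESeq2 called 12 lower and 1 higher. The part of the epididymal share in these values was not tested.

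**Figure D2:**
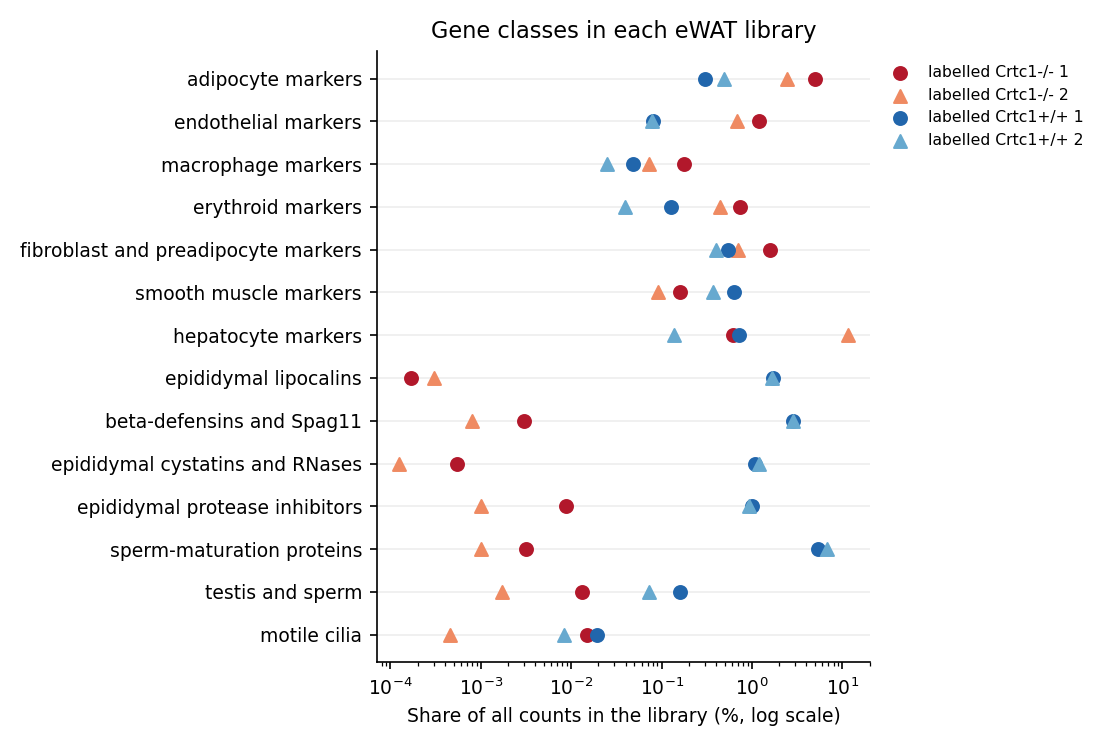
The share of all counts held by 14 gene lists (percent, log scale) is plotted for each of the 4 eWAT libraries, circles for replicate 1 and triangles for replicate 2, red shades for libraries labelled Crtc1-/- and blue for Crtc1+/+. Adipocyte markers lie at 5.01% and 2.43% against 0.299% and 0.491%, sperm-maturation proteins at 0.00316% and 0.000993% against 5.42% and 6.84%, and hepatocyte markers stand out at 11.5% in 1 library.

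Adipocyte markers were higher in each library labelled Crtc1-/-. All 18 were above both libraries labelled Crtc1+/+ in the first and in the second library, beside 42% and 39% of all genes above both. Of these, 15 rose, with a median log2 fold change of 3.69 and a range of 1.59 to 4.66. Their summed share was 5.01% (Wilson 95% interval 4.998 to 5.018) and 2.43% (2.42 to 2.43) against 0.299% (0.296 to 0.301) and 0.491% (0.487 to 0.494), intervals that cover counting error only. No marker was at 0 in any of the 4 libraries. The same markers held 0.0580% to 0.0681% of the counts in liver, so counts above 0 alone do not show adipocyte RNA. Each of the 4 eWAT shares was above that liver range.

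Single genes show the order within the list. Adipoq, adiponectin (chr16:23146536-23157968), was at 2803 and 1588 CPM against 124 and 226 (3.65 ± 0.60, adjusted p = 0.0287 in edgeR). Trarg1, a regulator of glucose transporter traffic, had the highest fold, at 777 and 520 against 21.96 and 29.4 (4.66 ± 0.44, adjusted p = 0.0165). Aqp7, the glycerol channel, was at 353 and 291 against 14.0 and 16.8 (4.38 ± 0.34, adjusted p = 0.0155). The lowest folds were those of Car3, a carbonic anhydrase abundant in fat, at 1750 and 1224 against 253 and 735 (1.59 ± 0.64, adjusted p = 0.160), and of the small adipocyte protein gene Adig, at 184 and 119 against 42.0 and 32.7 (2.02 ± 0.35, adjusted p = 0.0324). The groups overlapped for none of these 5 genes, which was common among all genes tested.

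Transcription factors that set adipocyte identity were among the genes that rose. Pparg was at 254 and 188 CPM against 14.5 and 24.1 (3.52 ± 0.41, adjusted p = 0.0184 in edgeR), its partner Rxra at 325 and 451 against 82.2 and 73.1 (2.32 ± 0.34, adjusted p = 0.0251), and Cebpa at 853 and 751 against 92.2 and 95.3 (3.10 ± 0.35, adjusted p = 0.0178). Nr1h3, the liver X receptor of fat and macrophages, was at 197 and 222 against 24.1 and 15.2 (3.41 ± 0.37, adjusted p = 0.0170). Of 16 such factors 8 rose, with a median of 1.91. Srebf1, which drives fatty acid and cholesterol synthesis, was at 265 and 135 against 203 and 234, with overlapping groups (-0.13 ± 0.42, adjusted p = 0.848).

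Of 17 tested PPARγ targets 9 rose, with a median of 3.38. Angptl4, an inhibitor of lipoprotein lipase, was at 1339 and 1693 CPM against 28.6 and 73.3 (4.89 ± 0.66, adjusted p = 0.0221), Pck1, the enzyme of glyceroneogenesis, at 2708 and 3332 against 67.8 and 176 (4.63 ± 0.69, adjusted p = 0.0260), and Fabp4, the fatty acid carrier, at 18221 and 9589 against 499 and 1079 (4.14 ± 0.82, adjusted p = 0.0409). These groups were far apart. Lpl, which takes fatty acids from lipoproteins, was at 1947 and 1713 against 211 and 461 (2.44 ± 0.55, adjusted p = 0.0519) and the fatty acid transporter Cd36 at 1190 and 953 against 61.4 and 215 (2.95 ± 0.71, adjusted p = 0.0595). Neither overlapped, and neither passed. Without the second library labelled Crtc1-/- 15 of the 17 passed as higher, where 9.53% of all genes did. Exceptions were Acsl1, an acyl-CoA synthetase, at 672 and 663 against 314 and 568, and Gk, glycerol kinase, at 8.13 and 24.5 against 32.7 and 80.6.

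**Figure D3:**
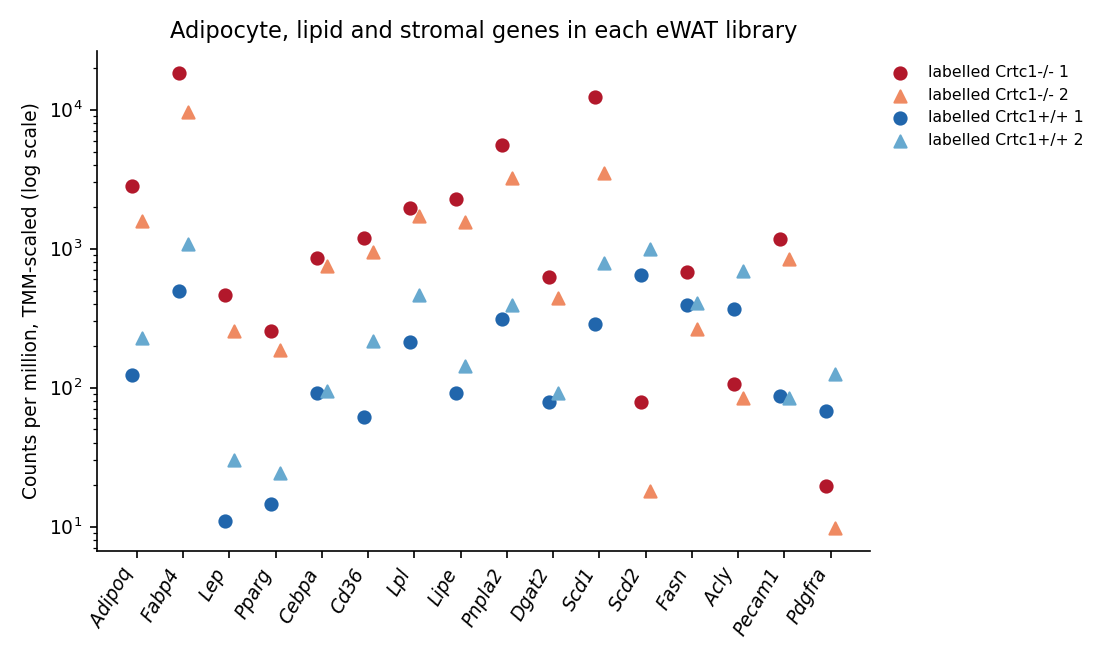
CPM of 16 adipocyte, lipid and stromal genes (log scale) in the 4 eWAT libraries, circles for replicate 1 and triangles for replicate 2, red shades for libraries labelled Crtc1-/- and blue for Crtc1+/+. Red points lie above blue for the adipocyte genes, as with Adipoq at 2803 and 1588 against 124 and 226, lie below for Scd2, Acly and Pdgfra, and mix for Fasn.

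Most genes of lipid release rose. Of 12 lipolysis genes 9 did, beside 6.65% of all genes, and 1 had a log2 fold change below 0. The list had a median of 3.29 and a range of -0.85 to 4.03. Lipe, hormone-sensitive lipase, was at 2290 and 1545 CPM against 92.2 and 142 (4.03 ± 0.52, adjusted p = 0.0202), Pnpla2, the lipase that opens triglyceride breakdown, at 5529 and 3235 against 314 and 392 (3.63 ± 0.57, adjusted p = 0.0269), and G0s2, its inhibitor, at 483 and 550 against 62.4 and 37.3 (3.37 ± 0.42, adjusted p = 0.0194). None of these groups overlapped. Triglyceride synthesis had 5 of 15 genes risen and a median of 1.27, led in abundance by Dgat2, the last enzyme of the route, at 624 and 438 against 79.4 and 91.6 (2.64 ± 0.37, adjusted p = 0.0229).

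De novo lipogenesis held calls in both directions. Of its 14 genes 1 rose, a share near the 6.65% of all genes, and 3 fell, beside 5.54%. Of the 14, 10 had a log2 fold change above 0 and the median was 1.10. DESeq2 called 9 higher and 3 lower. Without the first library labelled Crtc1-/- the median was 1.07. Acacb, the acetyl-CoA carboxylase that restrains mitochondrial fat import, was at 342 and 435 CPM against 21.9 and 35.2 (3.77 ± 0.41, adjusted p = 0.0173). Acly, which makes cytosolic acetyl-CoA, was at 106 and 84.1 against 367 and 696 (-2.48 ± 0.45, adjusted p = 0.0353), and Scd2, a stearoyl-CoA desaturase, at 78.5 and 17.98 against 643 and 995 (-4.08 ± 0.85, adjusted p = 0.0448). Elovl6, a fatty acid elongase, fell as well (-2.91 ± 0.46, adjusted p = 0.0269) and was named after its values were seen. The desaturase pair parted, since Scd1 was at 12380 and 3491 CPM against 286 and 793 (3.88 ± 0.98, adjusted p = 0.0660). Fasn, fatty acid synthase, was at 682 and 266 against 395 and 406, with overlapping groups (0.24 ± 0.53, adjusted p = 0.767). Of 22 cholesterol synthesis genes 3 fell, with a median of -0.73, among them Fdps at 33.1 and 45.5 CPM against 118 and 137 (-1.70 ± 0.30, adjusted p = 0.0342).

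The study also measured a set of metabolic and inflammatory genes by qPCR. Of the 16 of these tested here, 5 rose (Fabp4, Lep, Pnpla2, Pparg and Acadm) and 1 fell (Acly). Lep, leptin, was at 464 and 257 CPM against 11.03 and 30.3 (4.13 ± 0.67, adjusted p = 0.0287). The list was chosen by the study for these tissues and is not independent evidence of direction. Il1b and Tnf, inflammatory cytokines, were under 1 CPM in all 4 libraries and were not tested, and Ccl2, a monocyte attractant, was at 2.42 and 1.11 against 0.530 and 0.207 (adjusted p = 0.149).

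Endothelial genes had a median change close to that of adipocyte genes. Of 19 markers 18 rose, with a median of 3.35, and all 19 were above both libraries labelled Crtc1+/+ in each library labelled Crtc1-/-. Pecam1, a junction protein of all endothelium, was at 1180 and 837 CPM against 87.2 and 83.9 (3.56 ± 0.40, adjusted p = 0.0178), and Aqp1, the water channel of capillaries, at 2830 and 1983 against 112 and 103 (4.49 ± 0.49, adjusted p = 0.0170). Cd300lg, a capillary mucin, had the highest fold of the list, at 1365 and 1081 against 30.7 and 48.8. The basement membrane collagens of vessels and adipocytes followed, with Col4a1 at 3979 and 2568 against 342 and 328 (3.29 ± 0.50, adjusted p = 0.0264) and Col4a2 at 2943 and 1873 against 234 and 217 (3.42 ± 0.49, adjusted p = 0.0236).

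Of 38 collagens tested 5 rose, 4 fell and 29 did not pass, with a median of -0.04, close to that of all genes. Those that fell included Col17a1, of epithelial attachment plaques, at 0.330 and 0.208 CPM against 16.9 and 15.9 (-5.87 ± 0.56, adjusted p = 0.0165), and Col7a1, of anchoring fibrils, at 1.37 and 1.32 against 15.6 and 19.97 (-3.71 ± 0.45, adjusted p = 0.0193). Col1a1, the main fibrillar collagen, was at 1940 and 428 against 1348 and 773, so the groups overlapped. In the fibroblast and preadipocyte list 3 of 15 rose and 1 fell. Gsn, gelsolin, was at 8610 and 5887 CPM against 925 and 854 (3.03 ± 0.56, adjusted p = 0.0359), whereas Pdgfra, the receptor that marks preadipocytes, was at 19.6 and 9.79 against 68.2 and 125 (-2.71 ± 0.52, adjusted p = 0.0386).

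Blood and immune cells were less even. Globin genes were higher in both libraries labelled Crtc1-/-, with Hbb-bs at 2640 and 1652 CPM against 325 and 119 (3.27 ± 0.69, adjusted p = 0.0457). Of 6 erythroid genes 3 rose. That count was 1 under upper-quartile scaling and under library-size scaling, and 6 in DESeq2. Of 13 macrophage markers 3 rose, with a median of 1.98, and without the second library labelled Crtc1-/- 8 passed. Under upper-quartile scaling and under library-size scaling 0 passed in edgeR, and with TMM scaling 10 had an unadjusted p under 0.05 and DESeq2 called 9 higher. C1qa, a complement protein of tissue macrophages, was at 372 and 179 against 80.0 and 39.3 (2.21 ± 0.56, adjusted p = 0.0655). No MHC class II gene passed in edgeR, with 4 of 9 at an unadjusted p under 0.05 and 4 higher in DESeq2. The lead gene Cd74 was at 1751 and 621 against 411 and 163 CPM. Lymphocyte genes differed between the libraries labelled Crtc1+/+, with Cd79a, of the B cell receptor, at 27.2 in the first and 0.259 in the second. Klrb1c, of natural killer cells, fell from 97.9 and 158 to 3.68 and 1.25 CPM (-5.68 ± 0.69, adjusted p = 0.0193). It was the 1 lymphocyte marker of 13 that fell, beside 5.54% of all genes.

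**Figure D4:**
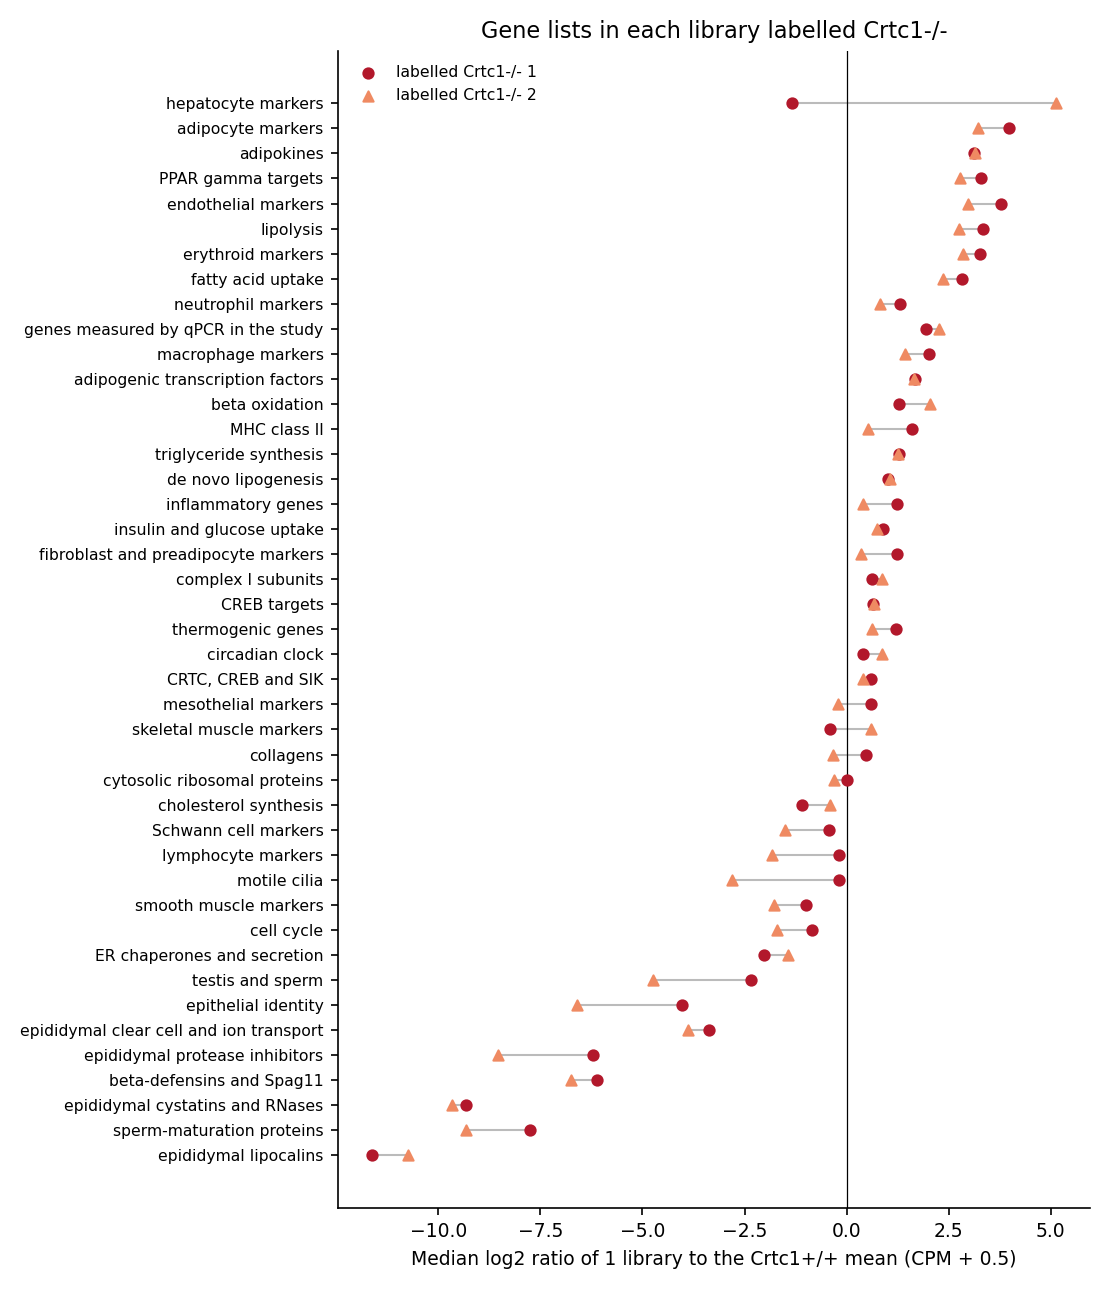
The median log2 ratio of each library labelled Crtc1-/- to the mean of the libraries labelled Crtc1+/+ (CPM + 0.5) is plotted for the gene lists with at least 3 tested members, circles for the first library and triangles for the second, joined by grey lines. The distance between the points varies, from adipokines at 3.13 and 3.13, through adipocyte markers at 3.98 and 3.22, to epithelial genes at -4.02 and -6.59. Hepatocyte markers lie at -1.35 and 5.12 and motile cilia at -0.18 and -2.82. The sign differs for some lists, as for skeletal muscle markers at -0.41 and 0.60.

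Hepatocyte genes set the 2 libraries labelled Crtc1-/- apart. Alb, albumin, was at 522 and 65412 CPM against 2761 and 422, and Apoa1, the main protein of high-density lipoprotein, at 147 and 15028 against 662 and 49.8. Only the second library was high, and it correlated with liver at a Pearson r of 0.867 to 0.887 across genes, which are not independent replicates, and with its own replicate at 0.877. As a percent of the liver mean, 19 hepatocyte markers stood at 28.0% to 67.3% (median 49.3%) in that library, at a median of 0.589% in the first, and at medians of 3.41% and 0.402% in the libraries labelled Crtc1+/+. The hepatocyte markers had a median log2 fold change of 4.13, which was -1.41 without the second library labelled Crtc1-/- and 5.12 without the first.

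Cyp2e1, a cytochrome P450 of fasting and ketone metabolism, was the exception among the hepatocyte markers. It was at 4986 and 8582 CPM against 498 and 492 (3.78 ± 0.60, adjusted p = 0.0275 in edgeR), and the first library labelled Crtc1-/- held 47.0% of the liver level, where the next of the 18 other markers held 1.53%. Its log2 fold change was 3.29 without the second library and 4.12 without the first, and both libraries labelled Crtc1-/- lay above both labelled Crtc1+/+.

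The lists of liver-rich metabolism need the same view by library. Beta oxidation had 10 of 24 genes risen and a median of 1.72, which was 1.23 without the second library labelled Crtc1-/- and 2.04 without the first. Acadm, the medium-chain dehydrogenase, was at 174 and 259 CPM against 46.5 and 67.7 (1.92 ± 0.37, adjusted p = 0.0394) and had a log2 fold change of 1.55 without the second library. Acaa1b, a peroxisomal thiolase, was at 169 and 1626 against 53.6 and 18.6, and Rbp4, retinol-binding protein, at 355 and 5198 against 196 and 32.4, so that the second library was by far the highest. Without it their log2 fold changes were 2.21 and 1.63, in place of 4.64 and 4.60. Ppara, the nuclear receptor of fasting liver, was at 6.16 and 50.8 against 7.03 and 6.95, and its log2 fold change without that library was -0.23. Of 36 complex I subunits 1 rose, beside 6.65% of all genes, with a median of 0.77. In the first and second library labelled Crtc1-/- 33 and 34 were above both libraries labelled Crtc1+/+, beside 42% and 39% of all genes. By unadjusted p in edgeR 15 were under 0.05, and DESeq2 called 12 higher.

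Across all genes, the level in liver tracked the difference between the replicates. Of 1109 genes at 100 CPM or more in liver, 789 (71.1%) were higher in the second than in the first library labelled Crtc1-/-, and of 4789 genes under 1 CPM in liver 835 (17.4%) were. In the first of these classes 141 genes (12.7%) rose and 8 (0.721%) fell, and in the second 190 (3.97%) rose and 564 (11.8%) fell. The median log2 fold change went from -1.14 in genes under 1 CPM, through -0.17 at 1 to 10 and 0.28 at 10 to 100, to 1.15 at 100 or more. Over genes at 100 CPM or more the first library had a median log2 ratio to the Crtc1+/+ mean of 0.17 and the second 1.38. Of the 1023 higher genes 892 (87.2%), and of the 852 lower genes 768 (90.1%), also passed when each library labelled Crtc1-/- was left out in turn, in refits that hold no spread between those 2 libraries and called more genes than the fit of all 4. Without the first, 11.1% of all genes were called higher and 12.3% lower.

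**Figure D5:**
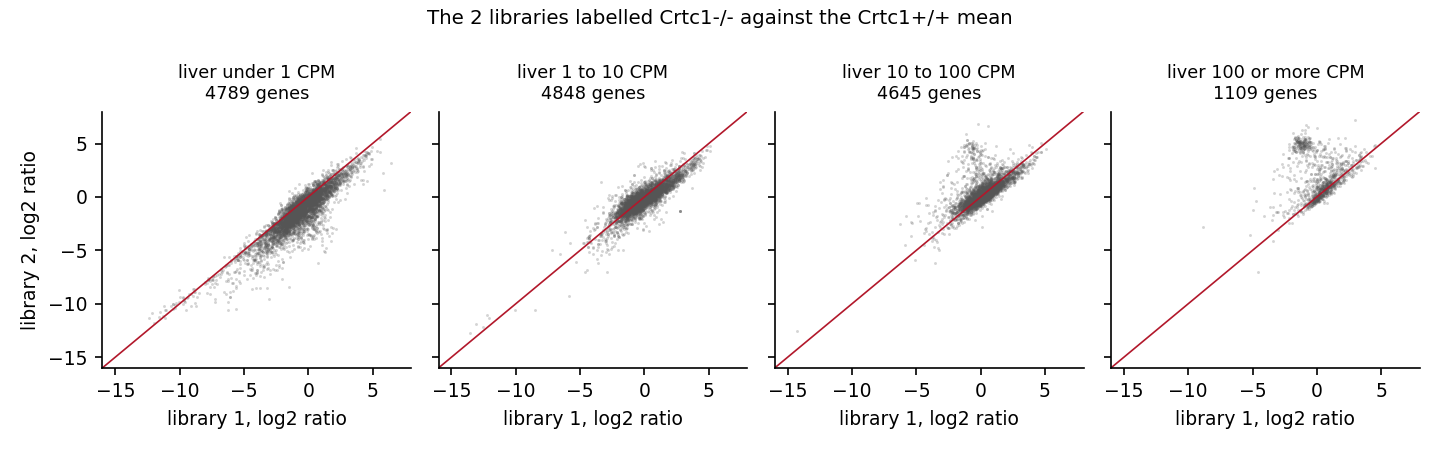
For every tested gene the log2 ratio to the mean of the libraries labelled Crtc1+/+ (CPM + 0.5) is plotted for the first (x) and the second (y) library labelled Crtc1-/-, in 4 panels by the mean level in liver, with a red line of equality. Genes under 1 CPM in liver lie along or below the line, and among the 1109 at 100 CPM or more a group sits well above it, 71.1% of them higher in the second library.

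Genes outside the lists that liver hardly expresses give a view with little of that RNA. Among genes with under 1 CPM in liver, 161 outside the lists rose with no overlap between groups and a mean log2 CPM not under 1, and 407 fell. Sncg, gamma-synuclein, which adipocytes express, was at 664 and 597 CPM against 10.3 and 16.0 (5.59 ± 0.44, adjusted p = 0.0155). Hcar2, the niacin and ketone body receptor of adipocytes, was at 39.4 and 15.7 against 0.819 and 0.882 (5.01 ± 0.65, adjusted p = 0.0205), and Krt79, a keratin, at 17.8 and 10.8 against 0.241 and 0.363 (5.53 ± 0.63, adjusted p = 0.0181). Others of the 10 largest rises were Lctl, Gabrr2, Cdsn, Gpr1, Igsf21, Tmem273 and Crtac1, with log2 fold changes of 5.14 to 6.59. Among the 10 largest falls were Lrcol1 and Cldn8. Lrcol1 had 0 counts in both libraries labelled Crtc1-/- and 99.1 and 106 CPM in the others, at least 550-fold lower against a floor of 3 counts per library, and Cldn8, a tight junction protein, was at 0 and 0 against 27.1 and 58.1, at least 228-fold lower.

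Of 76 cytosolic ribosomal protein genes 0 passed in edgeR, with 3 at an unadjusted p under 0.05 and 6 lower in DESeq2, and their median was -0.12. In the first library labelled Crtc1-/- 24 of the 76 were below both libraries labelled Crtc1+/+, and in the second 47 were, beside the 42.8% and 46.6% of all genes. Of 11 skeletal muscle markers 1 rose (Acta1, skeletal actin). That count was 1 in DESeq2 and without the expression filter. It was 0 under upper-quartile scaling, library-size scaling, limma and a fit of all 8 libraries. In 8 of the other 10 markers the groups overlapped, as with Ckm, muscle creatine kinase. Ckm was at 48.4 and 99.8 CPM against 81.5 and 56.4 and at a mean of 87.1 in liver. Of 19 clock genes 3 rose and 1 fell, beside 6.65% and 5.54% of all genes. Nr1d1, a clock repressor, was at 294 and 268 CPM against 59.8 and 43.1 (2.45 ± 0.33, adjusted p = 0.0215), and Bhlhe41 at 13.2 and 4.30 against 80.5 and 111 (-3.44 ± 0.63, adjusted p = 0.0353).

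Whether the change with genotype differed between eWAT and liver was tested by an interaction term in edgeR over all 8 libraries, in which 1081 of 15587 genes (6.94%) passed. Pparg differed by 2.87 on the log2 scale (adjusted p = 0.0175), with a log2 fold change of 0.56 in liver. Of the 18 adipocyte markers 7 passed, of the 19 endothelial markers 12, and of the 6 epididymal lipocalins 6.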

How the data were processed

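Per the labels and the study's methods, RNA of eWAT and liver from 2 mice per genotype was sequenced at BGI. The authors deposited estimated counts and FPKM per gene (19348 genes). The submitters' processing notes name HISAT, Bowtie2 and GRCm38.p6, without versions; the counting tool and use of strand are not given in the sources used here. Same-numbered liver and eWAT samples are not tied to one animal by the labels.

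From the deposited expected counts, which were rounded to whole numbers (8.31% to 9.98% of eWAT values were not whole), genes were filtered with filterByExpr, scaled by TMM and tested with edgeR 4.0.16 (quasi-likelihood, Benjamini-Hochberg, adjusted p threshold 0.05) in R 4.3.3. The fit held the 4 eWAT libraries and no covariate. A biological coefficient of variation of 0.517 was estimated on 2 residual degrees of freedom. With 2 against 2 libraries an exact permutation test cannot go below 0.333, so none was run. FPKM served for levels between genes and for limma 3.58.1. DESeq2 1.42.0 was an alternative, as were other scalings, filters, pseudocounts, a fit of all 8 libraries, a replicate block, removal of the epididymis and hepatocyte lists, and each library left out. Same-numbered libraries did not deviate together (correlation 0.0205), so numbers were not taken as pairs.

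Ratios of single libraries used log2(CPM + 0.5). Shares have Wilson 95% intervals, and a fold against 0 used a floor of 3 counts per library. Both cover counting error only. Promoter sequences are RefSeq's for GRCm38.p6. On simulated data for the eWAT comparison, with 200 of 15391 genes changed by a log2 fold of 3, edgeR recovered 44.5% with 30 false calls and DESeq2 78% with 110.

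The 44 gene lists and the members were chosen with earlier results of these data known. Named genes are Crtc1, up to 4 most abundant tested members of each list, up to 3 called against their list, the qPCR genes and PPARγ targets of the study, the 3 highest and 3 lowest folds among adipocyte markers, and the 10 largest rises and falls outside lists at a mean log2 CPM of at least 1, also among genes under 1 CPM in liver. Tables and figures were made with Python 3.11.15, pandas 2.3.3, SciPy 1.17.1 and matplotlib 3.10.9.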

Additional observations from a re-analysis of the deposited data

Results flagged for a closer look

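The change with genotype differed between eWAT and liver, by the interaction term in edgeR over all 8 libraries, in 1081 genes. Pnpla2, a lipase gene, differed by 3.73 on the log2 scale (eWAT minus liver, adjusted p = 0.0199), with a log2 fold change of -0.19 in liver. Pparg differed by 2.87 (adjusted p = 0.0175). These were the 2 that passed of 16 genes also measured by qPCR. The eWAT libraries of these contrasts are those whose epididymal and hepatocyte shares are given above, and the part of those shares in the differences was not tested.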

How the results depend on the processing

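With 2 libraries per group and 2 residual degrees of freedom, counts of called genes moved with the method. Against 1023 higher and 852 lower genes, DESeq2 called 2362 and 2258, and a fit of all 8 libraries 1824 and 2099. Library-size scaling gave 587 higher and adipocyte-marker scaling 22 higher and 13475 lower. With a replicate block edgeR called 0 and 0 genes, with 5418 at an unadjusted p under 0.05 on 1 residual degree of freedom. Leaving out 1 library gave 0 to 1712 higher and 0 to 1895 lower genes. Both 0 counts came without a library labelled Crtc1+/+. In each such refit the lone library was assumed to vary like the pair of the other group. For the tissue by genotype interaction across genes, the count of 1081 became 1746 with the replicate block and 2056 in DESeq2. Of 209 named genes tested, calls lost were 101 with the block, 101 without either library labelled Crtc1+/+, 46 with adipocyte-marker scaling (relative to its shift) and at most 10 under each other alternative, and 0 without either library labelled Crtc1-/-. The log2 fold change of Foxj1 (0.31) ranged from -6.20 to 1.27 with 1 library left out, and its sign reversed, past the threshold, without the first library labelled Crtc1-/-. The cause of these moves was not tested, beyond the fewer libraries or other spread that each alternative uses.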
